A study of Mus musculus with 10 samples.

Results

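Ly6G+ cells from the infarcted heart were compared with Ly6G+ cells from the blood of mice that had received mesenchymal stromal cells (MSC). The comparison used 5 of the 10 RNA-seq libraries, chosen by their labels, namely MI + MSC 15, 17 and 18 from cardiac tissue (n = 3) and Blood + MSC 23 and 24 (n = 2). All were male C57Bl/6J mice of 12 to 16 weeks with ligation of the left coronary artery, and all had received syngeneic bone marrow MSC, passage 6 to 9, under the skin at 3 sites, 30 to 60 minutes after ligation, so that injury and treatment were shared and the tissue of origin differed. Heart and blood were taken on day 3. The infarcted left ventricle was minced and digested with enzymes at 37 °C, which blood was not. The cardiac cells were then treated with red cell lysis buffer, and the study describes no such step for blood. Both suspensions were passed over anti-Ly6G magnetic beads. The other 5 libraries came from mice with the same infarct and without MSC, from the heart (MI, n = 3) and from blood (Blood, n = 2), and were used only where stated. The labels do not say which mouse gave which library, and they give no batch apart from the group itself. Tissue, digestion, red cell lysis and other handling therefore cannot be told apart.

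Neutrophils are short-lived granulocytes that leave the bone marrow with their granule proteins already made, circulate for hours, and enter an infarct within the first days after coronary occlusion. To leave the blood they roll on selectins, stop on integrins and follow chemokine gradients, and in the tissue they release granule enzymes and cytokines such as TNF and interleukin-1. Ly6G is the surface protein that marks them in the mouse and the one on which these cells were captured. Values below are normalized counts, that is reads divided by the size factor of the library, in the order MI + MSC 15, 17 and 18 and then Blood + MSC 23 and 24. A fold change is the difference between the group means of log2(normalized count + 2), with its standard error (SE), and a gene was called when its Benjamini-Hochberg adjusted p-value from limma was under 0.05 and the log2 fold change was at least 0.5 in either direction.

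The cardiac libraries were shallower than those from blood. They held 2229855, 665946 and 1979944 reads, against 6339922 and 8602711 reads in Blood + MSC, so that 3 reads, taken as the smallest detectable amount, equal between 2.03 and 6.89 normalized counts in the heart and at most 0.788 in blood. These floors cover counting error only. Over the genes tested, the correlation of log2 values across genes was 0.888 to 0.944 among the cardiac libraries, 0.974 between the blood libraries and 0.704 to 0.807 between tissues. Reads on 918 olfactory and vomeronasal receptor genes, which neither tissue should express, made up 0.0822% to 0.365% of the reads in the heart and 0.0191% and 0.028% in blood. MI + MSC 18 stood apart by cell type markers, as given below, and MI + MSC 17 by its depth.

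Genes were tested when their mean over the 5 libraries reached 10 normalized counts. Of 10887 such genes, 1966 (18.1%) were higher in MI + MSC and 1818 (16.7%) were lower. Among them were 1827 and 1704 coding genes. The counts given for each list below are to be read beside the shares of 18.1% and 16.7%. A gene could reach the mean of 10 through a single tissue, and the filter then favours a call toward that tissue. A change of at least 2 on the log2 scale was reached by 712 of the higher and 281 of the lower genes. All cardiac libraries lay above both blood libraries for 3481 genes (32.0%) and below them for 3390 (31.1%), and the median log2 fold change of all genes tested was 0.04. edgeR on the recovered reads called 2125 higher and 2214 lower genes and DESeq2 called 2162 and 2038. Without Blood + MSC 23, the counts were 721 and 476, and without Blood + MSC 24 they were 1217 and 925. With TMM scaling over all genes, which put the median log2 fold change at -0.54, 1053 were higher and 3820 lower, so that 21.6% of the calls were higher against 52.0%. With TMM scaling over the genes tested, chosen after the data were seen, the median was -0.00 and the counts were 1869 and 1995. Taking the spread from all 10 libraries gave 931 higher and 697 lower genes.

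**Figure D1:**
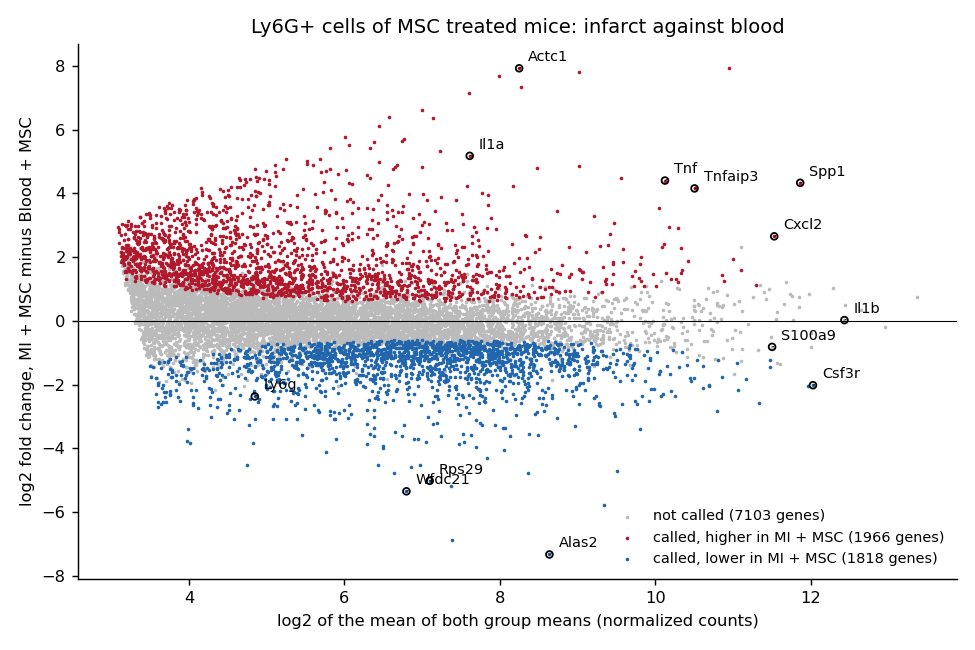
Log2 fold change of MI + MSC minus Blood + MSC (vertical axis) against the log2 of the mean of both group means in normalized counts (horizontal axis), 1 point for each of 10887 genes. The 1966 genes called higher are red, the 1818 called lower are blue, and 13 genes of the text are circled and named; Il1b sits at 0.02 among the most counted genes while Tnf, Tnfaip3 and Spp1 sit above 4.

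The label of the cells was checked against markers first. Ly6g, the gene of the capture antigen (ENSMUSG00000022582, GRCm39 chromosome 15, 75027089 to 75030982), had 6.76, 13.8 and 4.75 normalized counts in the heart against 57.0 and 41.2 in blood. It was detected in all 5 libraries, and every cardiac value lay below both blood values, with a log2 fold change of -2.37 (SE 0.42, adjusted p = 0.00446). Of 20 neutrophil markers, 12 were lower in MI + MSC and 0 higher, with a median log2 fold change of -1.93. Their summed counts made up 0.765%, 1.18% and 0.326% of all counts in the heart and 1.74% and 1.39% in blood, so that the share in MI + MSC 18 was the lowest of the 5. The calprotectin genes were not among the calls. S100a8, which encodes a subunit of calprotectin, had 1480, 3122 and 616 normalized counts in the heart against 3320 and 2073 in blood (log2 fold change -0.89, SE 0.62, adjusted p = 0.291). S100a9, its partner, had 2096, 4257 and 774 against 4124 and 2730 (log2 fold change -0.82, SE 0.65, adjusted p = 0.354). For both genes the tissues overlapped. The number of lower neutrophil markers was 2 without Blood + MSC 23, 5 with the spread of all 10 libraries and 17 with TMM scaling over all genes. Fewer cells of a type and less RNA per cell cannot be told apart in such bulk samples.

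Transcripts of heart muscle accompanied the cardiac cells. All 17 cardiomyocyte markers that passed the filter, of 18 on the list, were higher. Apart from Ttn, which would also have passed on its blood values, those named in this paragraph passed it through the cardiac libraries alone. Actc1, cardiac α-actin, had 258, 638 and 927 normalized counts in the heart against 0.263 and 0.168 in blood. The 3 cardiac libraries held 2027 reads of Actc1 and both blood libraries 2, a ratio of 2915 in favour of the heart (95% exact counting interval 806 to 24090, counting error only). Ttn, the giant sarcomere protein titin, had 1855, 2411 and 7524 against 9.46 and 13.6 (log2 fold change 7.92, SE 0.53, adjusted p = 9.72e-05). Together the 18 genes took 0.307%, 0.472% and 1.24% of the cardiac counts and 0.0117% and 0.0166% of those in blood. The 15 coding genes with the largest rise were mostly of this kind, among them Myh6, Mb, Xirp2, Pln, Nppa, Hspb7, Ankrd1, Myl3, Dsp and Tcap, with log2 fold changes between 5.43 and 7.81. The pericyte gene Rgs5 and the matrix genes Tnc and Col8a1 completed these 15.

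Vessel and connective tissue transcripts followed the same direction. Of 15 endothelial markers, 13 were higher, for example Cdh5, vascular endothelial cadherin, with 120, 158 and 233 normalized counts against 4.73 and 2.19. The clotting factor Vwf was not called, with 30.4, 64.3 and 44.1 against 43.6 and 27.6. Of 11 fibroblast markers, 5 were higher and 6 were not called. Postn, the matricellular protein periostin, had 51.4, 73.5 and 133 against 1.31 and 4.54 (log2 fold change 4.13, adjusted p = 0.000608), whereas the values of Col3a1 overlapped, with 429, 342 and 586 against 237 and 419 (log2 fold change 0.48, adjusted p = 0.275). Of 10 pericyte and smooth muscle markers, 7 passed the filter and 6 were higher. Several of these 6, Rgs5 among them, passed it through the cardiac libraries alone, as did Cdh5 and Postn, which favours a higher call. The tested pericyte and smooth muscle marker that was not called was well counted in blood (60.2 and 52.7), with a log2 fold change of 0.06. With no filter on low values, 6 of the 10 were higher and 0 lower. The number of higher fibroblast markers was 3 without Blood + MSC 23. The part of these cells in other results was not tested.

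Monocyte and macrophage markers were partly higher. Of 16 such genes, 7 were higher and 0 lower, with a median log2 fold change of 1.02 and summed shares of 1.12%, 0.601% and 1.39% in the heart against 0.446% and 0.655% in blood. With TMM scaling over all genes, 6 were higher and 2 lower, and in DESeq2, 8 and 2. Gpnmb, a glycoprotein of lipid-laden macrophages, had 1382, 510 and 1134 normalized counts in the heart against 44.4 and 20.7 in blood (log2 fold change 4.84, SE 0.45, adjusted p = 0.000343). The tetraspanin-like Ms4a7 had 156, 80.4 and 152 against 3.68 and 5.05 (log2 fold change 4.32, adjusted p = 0.000159). Complement component genes of resident macrophages were high in both tissues and not called. C1qa, for example, had 2005, 1104 and 2263 in the heart against 1078 and 1379 in blood (log2 fold change 0.49, SE 0.39, adjusted p = 0.349). Csf1r, the receptor that macrophages need for survival, had 709, 450 and 718 against 905 and 1163. The haemoglobin scavenger receptor Cd163, which is not among these 16 markers, was lower in the heart, with 17.6, 41.3 and 46.1 against 274 and 164 (log2 fold change -2.64, adjusted p = 0.00244). Leaving out Blood + MSC 23 left 4 higher macrophage markers.

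Erythroid markers had the lowest median of all lists examined, at -4.78 on the log2 scale. The cardiac cells alone are described as treated with red cell lysis buffer. The part of that step in this difference was not tested. Of 10 markers on the list, 7 passed the filter and were lower in the heart. Alas2, Hba-a2 and Hbb-bt passed it through the blood libraries alone, whereas Hba-a1 and Hbb-bs would also have passed on their cardiac values. Alas2, the first enzyme of haem synthesis in red cells, had 2.03, 2.30 and 2.03 normalized counts in the heart against 350 and 1238 in blood. This is 7 reads in the 3 cardiac libraries and 8692 in both blood libraries, a ratio of 432 in favour of blood (95% exact counting interval 209 to 1074). Hba-a1 (α-globin) had 14.9, 32.1 and 16.3 against 818 and 1728, and Hbb-bs (β-globin) had 27.7, 84.9 and 53.6 against 1084 and 1718. The globin genes have near-identical copies, Hba-a2 and Hbb-bt, between which reads may have been split. Platelet genes did not move together. Itga2b, the platelet integrin αIIb, was lower in the heart (4.06, 6.89 and 6.10 against 69.9 and 54.2), whereas the platelet chemokine Pf4 was higher (1233, 682 and 988 against 457 and 396, log2 fold change 1.14, adjusted p = 0.0222). Of 5 tested platelet genes 1 was higher and 3 lower, and without MI + MSC 15, Blood + MSC 23 or Blood + MSC 24, 1 was lower. Of 9 tested B cell markers, Ms4a1 alone was called (11.5, 11.5 and 13.6 against 27.8 and 97.6), whereas 3 were lower without MI + MSC 18 and 5 without Blood + MSC 23. None of 12 T and NK cell markers reached the filter, and together they made up at most 0.00522% of the counts of a library.

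**Figure D2:**
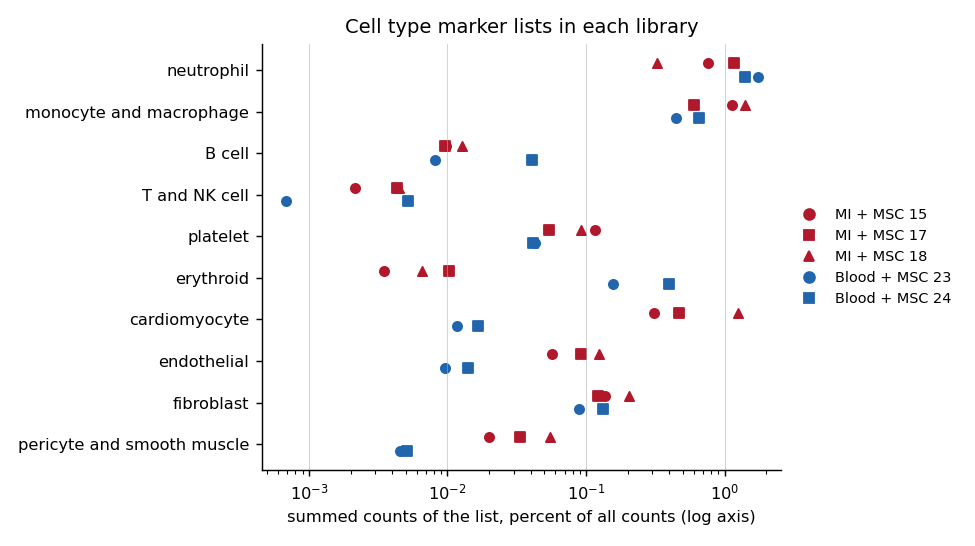
Summed normalized counts of 10 cell type marker lists as percent of all counts of the library (horizontal log axis), 1 mark per library, red for MI + MSC and blue for Blood + MSC. The cardiomyocyte, endothelial and pericyte marks of the heart lie to the right of both blood marks, the erythroid marks to the left, and MI + MSC 18 has the lowest neutrophil share (0.326%) and the highest cardiomyocyte share (1.24%).

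Several genes with which neutrophils leave the blood were lower in the cardiac cells. Of 23 adhesion molecules and chemoattractant receptors, 8 were lower and 5 higher, with a median log2 fold change of -0.60. Itgal, the α chain of the integrin LFA-1, had 135, 154 and 54.2 against 719 and 595 (log2 fold change -2.63, SE 0.41, adjusted p = 0.00255). S1pr4, a sphingosine phosphate receptor, had 7.44, 9.18 and 5.42 against 55.7 and 47.8. Both genes lay lower in every cardiac library than in either blood library. Also called lower were Selplg, the selectin ligand PSGL-1, Itgb2, the common β2 integrin chain, Itga4, Ltb4r1, the leukotriene B4 receptor, and the formyl peptide receptor Fpr1.

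In the other direction, Icam1, the ligand of LFA-1, had 1430, 1295 and 523 normalized counts in the heart against 107 and 94.2 in blood (log2 fold change 3.28, SE 0.41, adjusted p = 0.00106). Cxcr4, the receptor that retains neutrophils in the marrow and marks aged cells, had 3098, 3634 and 1445 against 1314 and 651 (log2 fold change 1.45, SE 0.49, adjusted p = 0.0486). Cd69, an early activation antigen that removes a sphingosine phosphate receptor from the surface, had 364, 236 and 107 against 33.9 and 31.6 (log2 fold change 2.61, adjusted p = 0.00341). Cxcr2, the receptor for the neutrophil chemokines, was not called (1221, 2002 and 304 against 3353 and 2527, log2 fold change -1.68, SE 0.69, adjusted p = 0.0904), although every cardiac value was below both blood values. Leaving out Blood + MSC 23, 2 of the list were higher and 4 lower, and without MI + MSC 15, 3 and 6. The counts were 3 and 12, with a median of -1.21, under TMM scaling over all genes and 3 and 5 with the spread of all 10 libraries.

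Transcripts of granule proteins, which are made in the marrow and stored, were lower in the heart, and the proteins were not measured. Of 16 tested genes of azurophil, specific and gelatinase granules, 9 were lower and 0 higher, with a median log2 fold change of -1.72; without Blood + MSC 23, 1 was lower, and with the spread of all 10 libraries, 3. Lcn2, the iron-siderophore binding protein of specific granules, had 75.0, 126 and 18.3 normalized counts against 455 and 361 (log2 fold change -2.80, SE 0.64, adjusted p = 0.0122). Ngp had 6.08, 9.18 and 2.71 against 303 and 45.6, and Camp, the cathelicidin gene, had 0.676, 6.89 and 2.03 against 84.3 and 9.59. Both are made early in granulocyte development, and the 2 blood libraries differed more from each other for them than for Lcn2. Mmp9, the gelatinase, had 804, 866 and 266 against 2800 and 2174 (log2 fold change -2.11, adjusted p = 0.0139). Wfdc21, a small secreted protein of neutrophils, had 1.35, 9.18 and 2.03 against 258 and 179. Lyz2, the lysozyme that macrophages share with neutrophils, was not called, with 8234, 5352 and 7992 against 5423 and 5736.

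Padi4, the enzyme that citrullinates histones during the release of extracellular traps, was lower as well. It had 12.2, 16.1 and 19.7 normalized counts in the heart against 194 and 302 in blood (log2 fold change -3.79, SE 0.29, adjusted p = 0.000156). Of 7 subunits of the NADPH oxidase, which makes superoxide, 3 were lower, among them the cytosolic Ncf4 and Rac2, and 4 were not called. Rac2 had 480, 466 and 281 against 1571 and 1356 (log2 fold change -1.87, adjusted p = 0.00313), while the membrane subunit Cybb had 606, 356 and 706 against 526 and 806. Csf3r, the receptor for G-CSF, had 2097, 2753 and 700 against 7250 and 5757 (log2 fold change -2.02, SE 0.59, adjusted p = 0.0294) and was called alone among 9 colony-stimulating factor genes, whereas 4 were lower with TMM scaling over all genes, 3 in DESeq2 and 0 with the spread of all 10 libraries.

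TNF and interleukin-1α transcripts were far more abundant in the cardiac cells, and interleukin-1β transcripts were not. Tnf (ENSMUSG00000024401, GRCm39 chromosome 17, 35418357 to 35420983) had 2880, 2707 and 843 normalized counts in the heart against 104 and 72.7 in blood, and the lowest cardiac value was above both blood values, and the group means differed 24.3-fold (log2 fold change 4.40, SE 0.51, adjusted p = 0.00074). Il1a had 445, 498 and 206 against 7.09 and 8.92 (log2 fold change 5.17, SE 0.37, adjusted p = 0.000108). Il1b, among the most counted genes of both tissues, had 5497, 8793 and 2515 in the heart against 7912 and 3003 in blood (log2 fold change 0.02, SE 0.67, adjusted p = 0.982). The blood libraries differed from each other by more than the tissues did.

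The other genes of both families moved in both directions. Of 17 interleukin-1 family and inflammasome genes, 4 were higher and 4 lower, beside 18.1% and 16.7% of all genes tested. Nlrp3, the inflammasome sensor, had 2330, 3189 and 1008 against 748 and 382 (log2 fold change 1.87, adjusted p = 0.0239), and Il1rn, the receptor antagonist, had 1703, 2121 and 718 against 561 and 431 (log2 fold change 1.48, adjusted p = 0.0349). The executors were lower, with Casp1 (caspase-1) at 69.6, 39.03 and 56.3 against 115 and 129, and Gsdmd, the pore-forming gasdermin D, at 158, 133 and 117 against 296 and 308. Il1rap, the co-receptor, had 147, 211 and 66.4 against 783 and 422. Of 14 tumour necrosis factor ligands and receptors, 6 were higher and 4 lower. The ligands Tnf, Tnfsf10 (TRAIL) and Fasl were higher, and the receptor genes Tnfrsf1a and Fas were lower (Fas 58.8, 108 and 31.2 against 167 and 140, log2 fold change -1.36, adjusted p = 0.0409). The division was not by role, for the ligands Tnfsf14 and Ltb were lower and the receptor Tnfrsf12a was higher. Ccrl2, an atypical receptor that binds the chemoattractant chemerin, had 3042, 3986 and 1220 against 284 and 62.4 (log2 fold change 4.18, SE 0.66, adjusted p = 0.0028). The calls in both families rested on few libraries. Higher and lower interleukin-1 genes were 1 and 3 without MI + MSC 15, 2 and 5 without MI + MSC 17, 2 and 0 without Blood + MSC 23 and 3 and 2 without Blood + MSC 24. Those of the tumour necrosis factor list were 5 and 1, 3 and 0, and 3 and 2 without MI + MSC 15, Blood + MSC 23 and Blood + MSC 24. Under TMM scaling over all genes, 2 and 8 interleukin-1 genes and 4 and 4 of the tumour necrosis factor list were called.

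Genes of NF-kB feedback rose with Tnf. NF-kB is held in the cytosol by IκB proteins, whose genes it switches on itself. Of 17 subunits and inhibitors, 5 were higher and 1 lower, and the 5 that rose (Nfkbia, Nfkbie, Nfkbid, Nfkbiz and Tnfaip3) encode inhibitors or IκB-like proteins, while Nfkb1, Nfkb2 and Rel, which encode DNA-binding subunits, were not called. With TMM scaling over all genes, 3 were higher and 4 lower, and without MI + MSC 15 or Blood + MSC 24, 2 were higher, and without Blood + MSC 23, 3. Tnfaip3, the deubiquitinase A20, had 2962, 4116 and 1177 normalized counts against 227 and 79.6 (log2 fold change 4.15, SE 0.58, adjusted p = 0.00164). Nfkbia, IκBα, had 3462, 4690 and 1714 against 982 and 621 (log2 fold change 1.95, SE 0.47, adjusted p = 0.0147). Nfkbie had 293, 184 and 203 against 48.6 and 44.9, and Nfkbiz had 1763, 2397 and 873 against 753 and 392.

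Chemokine ligands had the highest median of the lists that are no cell type markers, among genes that passed the filter. With no filter on low values their median was 1.51, against 2.08 for matrix metalloproteinases and TIMPs. Of 17 tested ligands, 10 were higher and 3 lower, with a median log2 fold change of 2.65, and with TMM scaling over all genes the counts were again 10 and 3. Without Blood + MSC 24 they were 8 and 1. Cxcl1, a ligand of CXCR2, had 243, 138 and 110 normalized counts against 11.8 and 7.24 (log2 fold change 3.79, SE 0.35, adjusted p = 0.000343). Cxcl2, its neighbour on chromosome 5, had 5394, 7494 and 2181 against 1435 and 348 (log2 fold change 2.65, SE 0.69, adjusted p = 0.0197), and Cxcl3 had a log2 fold change of 2.76. The blood values of Cxcl2 were themselves far apart. Cxcl10, which attracts T cells, had 130, 64.3 and 88.1 against 2.63 and 5.55 (log2 fold change 3.97, adjusted p = 0.000328). Cxcl16, a membrane-bound chemokine and scavenger receptor, had 555, 241 and 492 against 27.3 and 35.0. Cxcl12, the ligand of CXCR4 that stromal and vascular cells make, had 116, 214 and 260 against 3.15 and 6.39 (log2 fold change 4.84, adjusted p = 0.000159). Lower in the heart were Ccl6 (1726, 1495 and 1844 against 4270 and 3716), Ccl24 (3.38, 6.89 and 14.2 against 74.1 and 76.9) and Cxcl13 (2.03, 2.30 and 6.10 against 29.2 and 59.4).

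A short sequence near the start is shared by 5 of these genes. In the RefSeq promoter table of build GRCm38.p6, which gives 300 bases around each start site, a κB-type motif, GGG followed by any 2 letters and TTTCC, on either strand occurs in 1.63% of 32851 windows and 1.89% of 27025 genes. It was found in Cxcl1, Cxcl2 and Cxcl3 among 7 higher chemokine ligands with a promoter, and in Nfkbia and Tnfaip3 among 4 higher NF-kB genes. It was also in Nfkb2 and Rel among 8 NF-kB genes that were not called, and in Ccl9 among 2 such ligands. In the BCL2 family it was in 1 of 6 higher genes and 2 of 8 that were not called. The stretches are shown because the genes rose together, with the match in capitals, 5′ to 3′ on the strand of the gene, and they are matches of letters, not measured binding sites. The stretch of Cxcl1 is at chr5:90891154-90891203, of Cxcl2 at chr5:90903782-90903831, of Cxcl3 at chr5:90786008-90786057 (all plus strand), of Tnfaip3 at chr10:19015393-19015442 and of Nfkbia at chr12:55492647-55492696 (both minus strand).
Cxcl1: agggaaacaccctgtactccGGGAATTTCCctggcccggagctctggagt
Cxcl2: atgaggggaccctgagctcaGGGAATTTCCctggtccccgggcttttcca
Cxcl3: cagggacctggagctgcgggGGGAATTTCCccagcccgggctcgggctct
Tnfaip3: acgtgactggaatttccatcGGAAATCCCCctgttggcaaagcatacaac
Nfkbia: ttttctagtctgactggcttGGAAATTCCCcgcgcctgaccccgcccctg
The matches of the 3 chemokine genes begin 71, 97 and 73 bases before the start site and are the same 10 letters, and the flanks differ. Cxcl1 and Cxcl2 each hold another match within the same window.

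Hypoxia genes were divided. Of 18 targets and regulators of the hypoxia-inducible factors, 6 were higher and 4 lower, with a median log2 fold change of 0.11. With TMM scaling over all genes, 4 were higher and 6 lower, and without Blood + MSC 23 or Blood + MSC 24, 3 were higher and 0 lower, and without MI + MSC 15, 4 and 2. Hilpda, an inhibitor of fat breakdown on lipid droplets, had 663, 983 and 432 normalized counts against 27.3 and 16.8 (log2 fold change 4.81, SE 0.36, adjusted p = 0.000131). Vegfa, the angiogenic growth factor, had 433, 349 and 308 against 63.3 and 40.2 (log2 fold change 2.78, SE 0.26, adjusted p = 0.000352). Epas1, the subunit HIF-2α, which is strong in endothelium, had 97.3, 216 and 231.9 against 8.67 and 5.55. Hif1a itself had 657, 473 and 536 against 480 and 461 and was not called. Lower were the mitophagy receptor Bnip3l (351, 315 and 262 against 558 and 675), Kdm3a, Higd1a and Ankrd37.

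Of 19 genes of glycolysis, on which neutrophils rely for energy, 1 was higher and 7 were lower. The exception was the hexokinase Hk2, with 114, 94.1 and 144 normalized counts against 44.1 and 65.6 (log2 fold change 1.07, adjusted p = 0.0167). Slc2a3, the glucose transporter GLUT3, had 224, 321 and 78.0 against 946 and 656 (log2 fold change -2.13, SE 0.52, adjusted p = 0.0155), Gpi1 had 235, 218 and 228 against 624 and 527, and Gapdh was not called (1716, 1456 and 1688 against 1257 and 1331). Without Blood + MSC 23, 1 gene of the list was lower, and without MI + MSC 15 or Blood + MSC 24, 4.

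The core of the hypoxia response element, ACGTG on either strand, did not follow the direction of the hypoxia genes. It lies in 19.6% of all promoter windows and in 21.8% of all genes. Among the hypoxia genes with a promoter in the table it was present in 5 of 5 higher, 2 of 3 lower and 6 of 7 that were not called. Among the glycolysis genes it was in 1 of 1 higher, 2 of 6 lower and 9 of 11 that were not called. In Hilpda it begins 43 bases before the start site (chr6:29272563-29272607, plus strand) and in Vegfa, on the opposite strand to the gene, 211 bases before it (chr17:46025350-46025394, minus strand).
Hilpda: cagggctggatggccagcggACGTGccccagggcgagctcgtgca
Vegfa: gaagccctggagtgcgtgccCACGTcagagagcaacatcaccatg

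Immediate-early genes, whose transcripts appear within minutes of a stimulus, were counted together with tissue dissociation genes, which include Hspa1a and Hspa1b. The genes of this joint list were partly higher in the heart, the only tissue digested at 37 °C. Of 30 such genes, 12 were higher and 1 lower, with a median log2 fold change of 1.04. Without MI + MSC 18, 17 were higher, and without MI + MSC 15, 10 were higher and 0 lower. With TMM scaling over all genes, 8 were higher and 2 lower, with a median of 0.43. With the spread of all 10 libraries the counts were 8 and 1. The part of the digestion in these and other differences cannot be told apart from that of the tissue. Dusp2, a phosphatase that ends MAP kinase signals, had 436, 471 and 186 normalized counts against 22.6 and 11.4 (log2 fold change 4.22, SE 0.43, adjusted p = 0.000443). Maff had 567, 546 and 195 against 35.5 and 15.8, and Fosb had 424, 342 and 514 against 64.4 and 28.4 (log2 fold change 3.23, adjusted p = 0.000525). The genes of this list with the most counts were not called. Junb had 6783, 9549 and 3769 against 4489 and 2067 (log2 fold change 1.04, SE 0.57, adjusted p = 0.187), and Dusp1 had 3255, 5379 and 1858 against 5004 and 1922 (log2 fold change 0.04). Fos, Jun, Egr1 and Ier2 were not called either. Klf2, a quiescence factor of blood cells, was lower (581, 859 and 437 against 1986 and 1308, log2 fold change -1.42, adjusted p = 0.0173).

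Chaperone genes were higher as well. Of 21 genes of the unfolded protein and heat shock response, 11 were higher and 1, the sensor Ern1, was lower, with a median log2 fold change of 1.09. With TMM scaling over all genes 4 were higher and 4 lower, and without Blood + MSC 23, MI + MSC 15 and Blood + MSC 24, 4, 6 and 7 were higher. Hspa1b, an inducible HSP70, is counted with the immediate-early and dissociation genes above and not among these 21. It had 456, 227 and 115 normalized counts against 32.6 and 11.1 (log2 fold change 3.44, SE 0.57, adjusted p = 0.00326). It has a near-identical copy, Hspa1a, so reads of the pair may have been split. Hsph1, an HSP70 partner, had 127, 84.9 and 65.1 against 13.7 and 14.3 (log2 fold change 2.51, SE 0.30, adjusted p = 0.000894). The amino acid response factor Atf4 had 1192, 1513 and 602 against 347 and 256. A heat shock element of the letters GAANNTTC on either strand lies in 7.86% of all promoter windows and 9.04% of all genes. It was found in 5 of 10 higher genes of this list with a promoter, namely Bag3, Hspb1, Hspd1, Hspe1 and Hsph1, and in 1 of 9 that were not called. Among the immediate-early and dissociation genes it was in 2 of 11 higher, both HSP70 genes, and in 2 of 13 that were not called. Hspd1 and Hspe1, which encode the mitochondrial chaperonin pair, lie head to head and share a match between them, read here from the strand of Hspe1 (chr1:55088044-55088091, plus strand). The stretches of Hspa1a (chr17:34972233-34972280) and Hspa1b (chr17:34959315-34959362, both minus strand) are identical, and 1 of them is shown.
Hspa1b: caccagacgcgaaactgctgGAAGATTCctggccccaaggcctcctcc
Hspe1: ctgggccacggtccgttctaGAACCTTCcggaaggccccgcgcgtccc

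Of 31 interferon-stimulated genes, 5 were higher, 6 lower and 20 not called, near the 18.1% and 16.7% of all genes tested, with a median log2 fold change of 0.12, and without Blood + MSC 23, 1 was higher and 4 lower, without MI + MSC 15, 2 and 6, and without Blood + MSC 24, 3 and 6. Scaling by TMM over all genes left 2 higher and 11 lower, and the spread of all 10 libraries 1 and 2. The RNA-binding IFIT genes were higher. Ifit2 had 282, 172 and 275 normalized counts in the heart against 18.4 and 40.05 in blood (log2 fold change 3.03, SE 0.35, adjusted p = 0.00074), Ifit3 had 199, 165 and 142 against 44.1 and 83.3 (log2 fold change 1.43, SE 0.30, adjusted p = 0.00796), and Ifit1 had 291, 230 and 173 against 78.5 and 141 (log2 fold change 1.09, SE 0.31, adjusted p = 0.0291). The 2′-5′-oligoadenylate synthetases were lower, among them Oas3 (208, 170 and 165 against 409 and 472, log2 fold change -1.28, adjusted p = 0.00379) and Oas2 (135, 103 and 124 against 253 and 338). Ddx60, a helicase, had 59.5, 64.3 and 38.0 against 152 and 228 (log2 fold change -1.79, adjusted p = 0.00315). Irf1 and Rsad2 were not called.

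The tissue difference of these 3 IFIT genes had the other sign without MSC. In untreated mice, Ifit1 had 92.5, 387 and 196 normalized counts in MI 13, 19 and 20 and 919 and 368 in Blood 21 and 22, a log2 fold change of -1.59. Ifit2 had 84.0, 420 and 234 against 389 and 151 (log2 fold change -0.25), and Ifit3 had 143, 323 and 162 against 608 and 281 (log2 fold change -1.07). The difference between the treated and the untreated tissue difference was 2.68 for Ifit1, 3.29 for Ifit2 and 2.51 for Ifit3 on the log2 scale, with an adjusted p-value of 0.63 for each in limma. DESeq2 on the recovered reads gave an adjusted p of 0.0375 for Ifit2 and Ifit3. In the fit of all 10 libraries, the tissue difference of Ifit1 with MSC was not called (adjusted p = 0.214). For all 3 genes the cardiac ranges with and without MSC overlapped, and the blood ranges did not.

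Of 20 Toll-like receptor and adaptor genes, 4 were higher and 2 lower, and without Blood + MSC 23, 1 and 1, and without MI + MSC 15, 2 and 1. Scaling by TMM over all genes left 1 higher and 8 lower. Of all genes tested in the main fit, 18.1% were higher and 16.7% lower. The nucleic acid receptors Tlr7 (283, 197 and 342 normalized counts against 85.1 and 108), Tlr9 and Tlr3 were higher, and so was Cd14, the coreceptor for endotoxin (1673, 1733 and 1500 against 1004 and 437, log2 fold change 1.30, adjusted p = 0.03). The surface receptors Tlr2 and Tlr4 were not called. Irak4, the kinase below them, had 71.6, 68.9 and 51.5 against 219 and 187 (log2 fold change -1.64, SE 0.23, adjusted p = 0.00162).

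Of 15 BCL2 family genes, which decide between survival and apoptosis, 6 were higher and 0 lower. The A1 genes Bcl2a1a, Bcl2a1b and Bcl2a1d, near-identical antiapoptotic copies among which reads may have been split, had log2 fold changes between 2.41 and 2.62. Bcl2a1b, for example, had 147, 181 and 100 normalized counts against 23.1 and 19.9 (SE 0.28, adjusted p = 0.000578). Mcl1, on which neutrophil survival depends, was not called, with 6654, 8750 and 4166 against 5494 and 3622. Under TMM scaling over all genes, 5 members were higher and 3 lower.

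Of 20 antioxidant genes, 7 were higher and 4 lower, and 4 and 5 with TMM scaling over all genes. Without Blood + MSC 23 the counts were 3 and 1, and without Blood + MSC 24, 4 and 3. Hmox1, the haem-degrading enzyme, had 1934, 622 and 1297 normalized counts against 141 and 136 (log2 fold change 3.05, SE 0.43, adjusted p = 0.00164). Slc7a11, the cystine importer, had 1497, 1731 and 446 against 394 and 217 (log2 fold change 1.84, adjusted p = 0.0349). Gsr (glutathione reductase), with 746, 964 and 264 against 2571 and 1753, and Prdx5, with 297, 308 and 220 against 865 and 822, were lower. Of 16 iron genes, 3 were higher and 7 lower, and 1 and 4 without Blood + MSC 23 and 1 and 6 without MI + MSC 15. The metalloreductase Steap4 had 187, 236 and 86.8 against 1389 and 1137 (log2 fold change -2.99, SE 0.40, adjusted p = 0.0013), and Hp, haptoglobin, had 324, 473 and 142 against 1914 and 1333 (log2 fold change -2.51, adjusted p = 0.00514). The ferritin genes Fth1 and Ftl1 were not called.

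Lysosomal genes that were called were all higher, 5 of 20, while 18.1% of all genes tested were higher. The cathepsin gene Ctsl was among the 5 (1429, 950 and 1464 normalized counts against 475 and 503, log2 fold change 1.36, adjusted p = 0.00946). Without Blood + MSC 23, 1 was higher, without MI + MSC 15 or Blood + MSC 24, 2, and without MI + MSC 17, 9. Under TMM scaling over all genes, 1 was higher and 3 lower. Atp6v0d2, a macrophage and osteoclast proton pump subunit, had 52.0, 18.4 and 56.9 against 2.10 and 3.03.

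Several reparative mediators were higher. Of 21 genes tied to repair or alternative activation, 10 were higher and 3 lower, with a median log2 fold change of 1.11. Spp1, osteopontin (ENSMUSG00000029304, GRCm39 chromosome 5, 104582165 to 104589235), was the third most counted coding gene of the cardiac cells, with 7322, 6107 and 7884 normalized counts against 378 and 323. The cardiac values were close to each other, and the means differed 20.3-fold (log2 fold change 4.33, SE 0.34, adjusted p = 0.000159). Il10, the anti-inflammatory cytokine, had 44.6, 25.3 and 45.4 against 1.31 and 1.18 (log2 fold change 3.59, SE 0.41, adjusted p = 0.000699). The epidermal growth factor receptor ligands Hbegf (29.7, 39.03 and 29.8 against 1.31 and 1.68) and Areg were higher as well. Il10 and Hbegf passed the filter through the cardiac libraries alone. Arg1, Mrc1 and Fn1 were not called. Fn1, fibronectin, had 1448, 1100 and 2607 against 2714 and 5942. Lower were Anxa1, the pro-resolving annexin (277, 282 and 293 against 1996 and 1079, log2 fold change -2.36, SE 0.30, adjusted p = 0.00107), Retnla and Cd163. Retnla passed the filter through the blood libraries alone.

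Matrix proteases moved in both directions. Of 15 matrix metalloproteinases, ADAMs and their inhibitors, 7 were higher and 2, the neutrophil enzymes Mmp8 and Mmp9, were lower. Mmp14, a membrane collagenase, had 408, 207 and 379 normalized counts against 31.3 and 42.7 (log2 fold change 3.05, SE 0.32, adjusted p = 0.000515), and Mmp12, the macrophage elastase, had 185, 84.9 and 247 against 23.6 and 6.90. The inhibitor Timp3 had 80.4, 225 and 203 against 17.3 and 40.4 (log2 fold change 2.45, adjusted p = 0.0063), and Timp4 had 14.2, 45.9 and 16.9 against 0.263 and 0.168, the latter being 1 read in each library. In the lipid mediator pathway, 1 of 19 genes was higher and 7 were lower, and without Blood + MSC 23, 2 and 2. Alox5, 5-lipoxygenase, had 169, 262 and 78.6 against 559 and 457 (log2 fold change -1.72, adjusted p = 0.0178), and Ltc4s, leukotriene C4 synthase, had 37.2, 34.4 and 30.5 against 195 and 333 (log2 fold change -2.84, SE 0.27, adjusted p = 0.00035). Ptgs2, cyclooxygenase-2, was above blood in 2 of 3 cardiac libraries and not called, with 3789, 5099 and 1504 against 1644 and 228 (log2 fold change 2.32, SE 0.80, adjusted p = 0.0536).

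Cytokine signalling through STAT3 moved in both directions. Of 16 genes of the IL-6 family and its feedback, 8 were higher and 4 lower. With TMM scaling over all genes 4 were higher and 5 lower, and without MI + MSC 15, MI + MSC 18, Blood + MSC 23 and Blood + MSC 24 the counts were 8 and 1, 8 and 2, 4 and 0, and 4 and 1. The inhibitors Socs1 (57.5, 66.6 and 31.2 normalized counts against 12.9 and 13.1) and Cish and the cytokine Lif were higher, and Jak1 (341, 347 and 272 against 824 and 743, log2 fold change -1.29, adjusted p = 0.00472), Stat3 and Il6ra were lower. Socs3 was not called, with 2048, 2418 and 1138 against 2305 and 1286. Among 14 S100 proteins and annexins, 8 were lower and 0 higher, and 5 were lower without MI + MSC 15, Blood + MSC 23 or Blood + MSC 24. Anxa2 had 266, 239 and 251 against 1660 and 1256 (log2 fold change -2.51, SE 0.24, adjusted p = 0.000378).

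Receptors of innate recognition and antigen presentation depended on the scaling. Of 19 lectins, TREM and Siglec receptors, 4 were lower and Trem2 (456, 209 and 536 normalized counts against 120 and 159) was higher. The higher and lower counts of that list were 3 and 6 without MI + MSC 17, 4 and 4 without MI + MSC 18, 0 and 1 without Blood + MSC 23 and 0 and 2 without Blood + MSC 24, and with TMM scaling over all genes 0 and 10. Siglecf, a marker of a long-lived cardiac neutrophil state, had 414, 500 and 138 against 623 and 360 (log2 fold change -0.63, SE 0.52, adjusted p = 0.37), with overlapping tissues. Among 10 class II genes Cd86 alone was called, and H2-Aa had 1212, 395 and 1041 against 351 and 1056. Of 15 class I genes, 2, H2-T23 and the immunoproteasome subunit Psmb9, were lower, and 4 without MI + MSC 18 and 6 with TMM scaling over all genes. Of 6 Fc receptor genes, Fcgr1 was higher (323, 126 and 293 against 25.7 and 69.8) and Fcgrt, the neonatal receptor, was lower. Complement genes were lower in 7 of 16, or 3 without Blood + MSC 24, among them C3 (129, 172 and 94.9 against 528 and 494, log2 fold change -1.98, adjusted p = 0.00156), and the receptor gene C3ar1 was higher.

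Genes of DNA replication and mitosis, which mature neutrophils do not run, were higher in 10 of 18, with none lower and a median log2 fold change of 1.32. Mki67 had 279, 188 and 416 normalized counts against 29.7 and 47.3 (log2 fold change 2.83, SE 0.35, adjusted p = 0.000958), and Pcna had 494, 457 and 410 against 136 and 120 (log2 fold change 1.81, SE 0.21, adjusted p = 0.000807). Without Blood + MSC 23, 3 were higher, and with TMM scaling over all genes, 5. Among 24 transcription factors of the granulocyte lineage, 5 were higher and 6 lower, beside 18.1% and 16.7% of all genes tested. The counts were 2 and 3 without MI + MSC 15 or Blood + MSC 24, 1 and 1 without Blood + MSC 23, and 1 and 11 with TMM scaling over all genes. Bhlhe40 had 792, 889 and 461 against 246 and 249 (log2 fold change 1.47, adjusted p = 0.00885). Cebpe, which drives granule genes in the marrow, had 12.8, 13.8 and 8.14 against 37.3 and 31.0 (log2 fold change -1.43, adjusted p = 0.0137), and the retinoic acid receptor Rara had 86.5, 78.1 and 49.5 against 401 and 314 (log2 fold change -2.32, SE 0.28, adjusted p = 0.000864). Cebpb, Spi1 and Cebpd were not called.

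Of 23 long noncoding RNAs, 8 were higher and 4 lower, and 4 and 4 with TMM scaling over all genes. Without MI + MSC 15, Blood + MSC 23 and Blood + MSC 24 the counts were 6 and 1, 3 and 0, and 5 and 1. Mir155hg, the host transcript of miR-155, had 19.6, 34.4 and 12.9 normalized counts against 0 and 0.337, the latter being 2 reads. Morrbid, which restrains the death gene Bcl2l11 in short-lived myeloid cells, had 111, 133 and 67.8 against 20.2 and 27.9 (log2 fold change 1.99, SE 0.32, adjusted p = 0.00275), and Bcl2l11 was higher too. The paraspeckle RNA Neat1 had 1603, 2238 and 950 against 4329 and 3865 (log2 fold change -1.44, adjusted p = 0.032). Malat1 was not called.

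**Figure D3:**
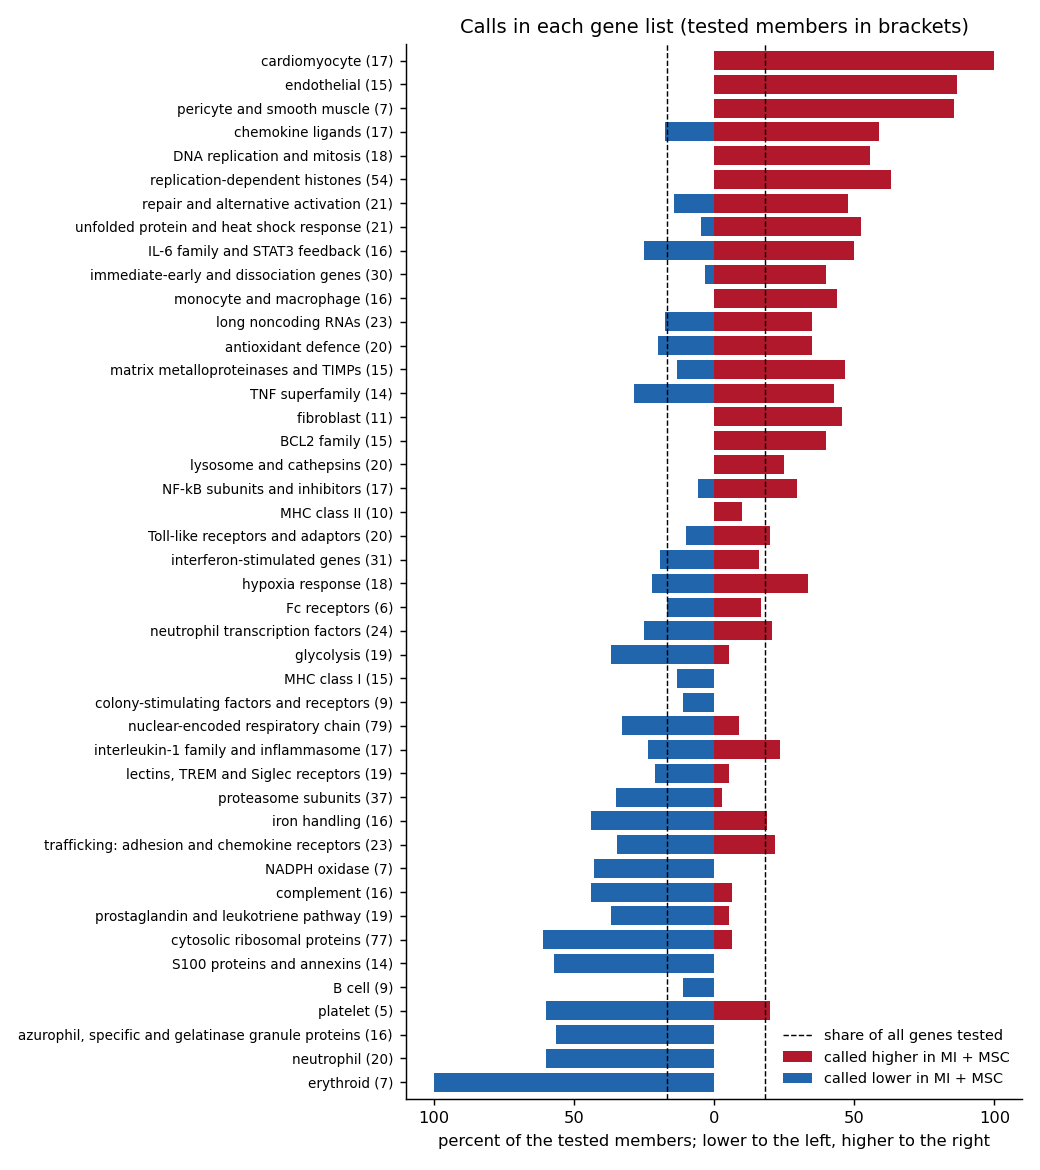
Share of the tested members of 44 gene lists called higher (red, to the right) or lower (blue, to the left) in MI + MSC, in percent, ordered by the median log2 fold change. Dashed lines give the share of all genes tested, 18.1% higher and 16.7% lower; cardiomyocyte and erythroid markers reach 100% on opposite sides, and the calls of neutrophil markers, granule proteins and S100 proteins and annexins are all on the lower side.

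The spread of all 10 libraries, which includes 2 shallow libraries of untreated mice, left fewer calls in many other lists. Higher and lower genes were then 2 and 2 in the interleukin-1 list, 3 and 0 in the NF-kB list, 3 and 1 in the tumour necrosis factor list, 1 and 2 in glycolysis, 4 and 1 in the hypoxia list, 1 and 1 among Toll-like receptors, 3 and 2 in the antioxidant list, 1 and 0 in the lysosomal list, 5 and 1 in the IL-6 list, 1 and 4 among lipid mediators, 3 and 0 among chaperones, 5 and 0 in DNA replication, 2 and 3 among transcription factors and 3 and 1 among long noncoding RNAs. Chemokine ligands had 9 and 2, repair genes 8 and 3, and cardiomyocyte markers 17 and 0.

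Ribosomal protein transcripts were mostly lower in the heart. Of 77 cytosolic ribosomal protein genes, 47 were lower and 5 higher, with a median log2 fold change of -0.99, and with TMM scaling over all genes 55 were lower and 0 higher. With the spread of all 10 libraries, 10 were lower and 2 higher. The number of higher genes was 0 without MI + MSC 15 or Blood + MSC 23, 1 without Blood + MSC 24 and 3 without MI + MSC 18. Of the 15 coding genes with the largest fall, 3 were of this kind. Rps29 (ENSMUSG00000034892, GRCm39 chromosome 12, 69204495 to 69205960) had 6.76, 6.89 and 5.42 normalized counts in the heart against 263 and 272 in blood (log2 fold change -5.02, SE 0.25, adjusted p = 9.22e-05), Rpl38 had 7.44, 11.5 and 4.75 against 224 and 223, and Rps21 had 6.08, 13.8 and 7.46 against 248 and 236. The lowest blood value of each was far above the highest cardiac one. Rplp0 had 1231, 1134 and 1224 against 724 and 862 and was not called, and Rps2 was higher (1194, 1090 and 1182 against 501 and 589, log2 fold change 1.09, adjusted p = 0.0132). Ribosomal protein genes have many processed copies, with which they may share reads. Of 79 nuclear-encoded respiratory chain genes, 26 were lower and 7 higher, and 13 and 2 without Blood + MSC 23, 14 and 4 without Blood + MSC 24, 19 and 4 without MI + MSC 15, and 26 and 11 without MI + MSC 17. They were 43 and 1 with TMM scaling over all genes and 7 and 3 with the spread of all 10 libraries. Among those lower was the small ATP synthase subunit Atp5f1e (6.76, 2.30 and 8.81 against 167 and 166, log2 fold change -4.51, adjusted p = 0.000301). Of 37 proteasome subunits, 13 were lower and 1 higher, and 7 and 8 were lower without Blood + MSC 23 and Blood + MSC 24, and without MI + MSC 17, 3 were higher. Of these subunits 20 were lower with TMM scaling over all genes and 2 with the spread of all 10 libraries.

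Short transcripts were lower more often than long ones, but length did not separate the ribosomal protein genes. By the canonical transcript of GENCODE M39, the 6 tested ribosomal protein genes under 500 bases were all lower, with a median log2 fold change of -3.60, and the median was -0.96 for 17 genes of 500 to 750 bases and -0.88 for 54 longer ones. Of 20 ribosomal protein genes with a log2 fold change of -3 or lower, however, 5 were under 500 bases, 3 were of 500 to 750 bases and 12 were longer by this annotation, for example Rpl37 (6111 bases, log2 fold change -3.85), Rps15a (5182 bases, -3.61) and Rps7 (954 bases, -4.06). Which transcript of a gene was expressed was not measured. Over all coding genes without histones, the median was -1.37 for 24 genes under 500 bases, -0.46 for 122 genes of 500 to 750 bases, -0.08 for 221 genes of 750 to 1000 bases, -0.11 for 1470 genes of 1000 to 2000 bases and 0.12 for 822 genes of 8000 bases or more. Of the shortest class 54.2% were lower and 4.17% higher, and of the longest class 16.3% and 28.3%. The 6 short ribosomal protein genes were lower to a like extent in each cardiac library, with medians of -3.69, -3.47 and -3.65 relative to blood. Over 9982 genes the rank correlation of length and fold change was weak (Spearman's rho = 0.12, genes not being independent). Replication-dependent histone genes, whose transcripts are as short (median 532 bases) and end without a poly(A) tail, went the other way. Of 54 such genes, 34 were higher and 0 lower, with a median log2 fold change of 1.23; without Blood + MSC 23, MI + MSC 15 and Blood + MSC 24, 8, 16 and 17 were higher, and with TMM scaling over all genes 16 were higher and 2 lower, and with the spread of all 10 libraries 7 were higher. H2bc14, for example, had 63.5, 36.7 and 90.8 normalized counts against 9.46 and 12.3 (log2 fold change 2.27, adjusted p = 0.00324). Histone genes are near-identical copies, among which reads may have been split.

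**Figure D4:**
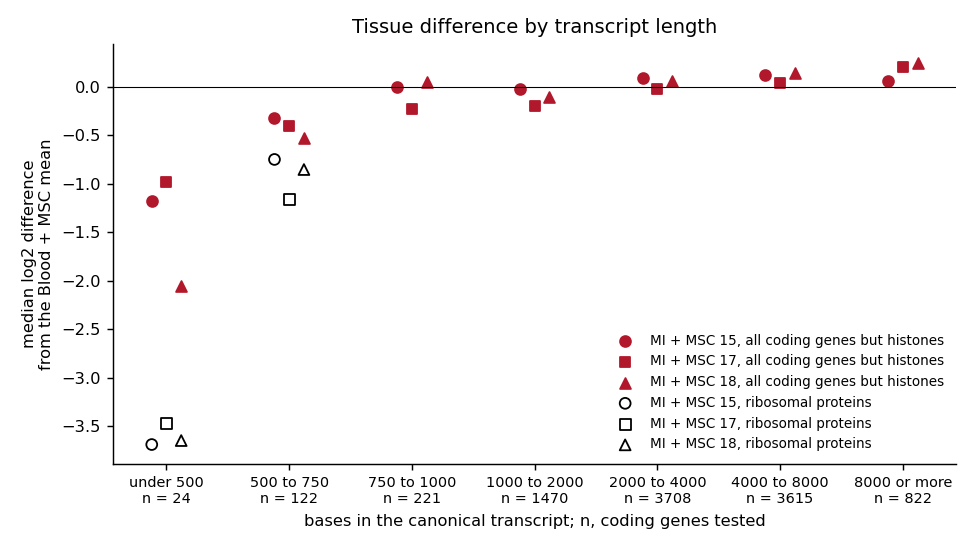
Median log2 difference of each cardiac library from the Blood + MSC mean (vertical axis) by length of the canonical transcript in bases (horizontal axis, number of coding genes tested below). Filled red marks are all coding genes but histones and open black marks are ribosomal protein genes; both lie lowest under 500 bases, where the ribosomal medians are -3.69, -3.47 and -3.65.

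Coding genes were detected in larger number in the cardiac cells. At 10 or more normalized counts, 9694, 11507 and 10526 coding genes were counted in the heart against 8611 and 9059 in blood. Means were 10576 ± 908 (SD, n = 3) and 8835 ± 317 (SD, n = 2), a difference of 1741 genes. A two-sided exact permutation test gave p = 0.2, the smallest value that 3 against 2 libraries allow. After thinning each library to the 665946 reads of MI + MSC 17, 14462, 17001 and 15969 coding genes had a read in the heart against 12195 and 12972 in blood. MI + MSC 17, with the most genes, was also the library with the largest share of olfactory and vomeronasal receptor reads.

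The tissue difference of untreated mice was placed beside that of MSC treated mice, since the groups share no library. In a fit over all 10 libraries, MI was higher than Blood for 2452 genes and lower for 1556. That fit called fewer genes with MSC, 951 higher and 676 lower, than the fit of the 5 MSC libraries used above. Over 10728 genes tested both ways, the 2 log2 fold changes had a Pearson's r of 0.798 and a Spearman's rho of 0.747, given as a description across genes. Of the genes higher with MSC, 1274 were also higher without, which is 65.6% of the treated and 60.1% of the untreated list. Of those lower with MSC, 947 were lower without, 52.4% and 62.1% of the lists. These lists come from fits of different form. Within the 10-library fit, 817 genes were higher in both, 85.9% of the treated and 33.3% of the untreated list, and 523 were lower in both, 77.4% and 33.6%. Opposite calls were made for 4 genes higher with MSC and 2 lower when the fits were combined, and for 1 gene, Epha2, within the 10-library fit. The test of the difference between both tissue differences called 0 of 11549 genes in limma (lowest adjusted p = 0.627), 838 genes had an unadjusted p under 0.05, edgeR called 0 and DESeq2 called 18.

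Side by side, the leading genes had these values in MI 13, 19 and 20 and in Blood 21 and 22. Tnf had 303, 473 and 620 normalized counts against 177 and 38.3 (log2 fold change 2.40, against 4.40 with MSC). Il1a had 16.8, 64.4 and 84.4 against 0 and 2.60. Padi4 had 42.0, 15.4 and 19.04 against 127 and 400. All 3 moved in the direction seen with MSC. Cxcr4 (412, 1307 and 1567 against 1696 and 1255), Cd69 (16.8, 76.9 and 66.4 against 63.6 and 33.8) and Nlrp3 (496, 626 and 865 against 629 and 550) overlapped between the tissues without MSC, with log2 fold changes of -0.62, -0.05 and 0.13. Cxcl12 had 815, 695 and 777 against 0 and 2.60 without MSC, and the cardiomyocyte share of the MI libraries, at 0.811% to 2.44%, reached above that of MI + MSC. Rps29 had 8.40, 4.81 and 3.60 against 21.2 and 380, and Rps21 had 33.6, 2.88 and 4.63 against 0 and 389, so that Blood 21, a library of 268860 reads in which 1 read equals 7.07 normalized counts, lacked the high level of these transcripts that Blood 22 and both Blood + MSC libraries had.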

How the data were processed

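Ly6G+ cells were profiled by RNA-seq of ribosomal RNA-depleted, stranded paired-end libraries. Per the study's methods, the authors trimmed reads with Trimmomatic, aligned them with STAR to GRCm39, removed duplicates, counted with featureCounts using strand, left out mitochondrial reads and scaled the counts by DESeq2 size factors. The deposited signal is thus the count divided by the size factor of its library, from which whole reads were recovered for 100.0% of values. A second deposited table, named for raw counts, holds the same values and was not used.

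Log2(value + 2) of genes with a mean of at least 10 over the 5 MSC libraries was fitted with limma 3.58.1 (trend) in R 4.3.3, with Benjamini-Hochberg adjustment. The difference between tissue differences was fitted over all 10 libraries. edgeR 4.0.16 and DESeq2 1.42.0 on recovered reads, other scalings, filters and pseudocounts, and leaving out each library were alternatives. The code was tested on simulated data. Per the study’s methods, single animals were the experimental unit.

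The members and gene lists were chosen with earlier results of these data known. Named genes are the 15 coding genes with the largest change in each direction without overlap, up to 4 called members of each list in each direction and its 3 most counted members not called, all members of lists of 8 or fewer, Ly6g and genes the study measured by RT-qPCR, the 10 most counted coding genes of each group and genes called in the interaction. Areg, Bcl2l11, Cebpd, Cxcl3, Egr1, Fos, Hspa1a, Hspb1, Hspd1, Hspe1, Ier2, Itga4, Itgb2, Jun, Ltb4r1, Nfkbid, Selplg, Spi1, Rpl37, Rps15a and Epha2 fall outside that rule and were chosen after their values were seen. Promoter sequences are from RefSeq (GRCm38.p6), gene coordinates and transcript lengths from GENCODE M39 (GRCm39).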

Additional observations from a re-analysis of the deposited data

Results flagged for a closer look

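Pf4 and Epha2 were picked out for a switch of sides. Every cardiac library lay on one side of both blood libraries with MSC and on the other side without. They were not the only such genes. Fn1, for example, also switched, with a log2 fold change of -1.32 with MSC and 0.90 without. Limma's test of the difference did not pass for Pf4 or Epha2 (adjusted p = 0.63 for both). DESeq2 on the recovered reads called Pf4 (difference 3.37, adjusted p = 0.0199) and Fn1 (-2.25, adjusted p = 0.0375) and did not call Epha2. In the fit of all 10 libraries the tissue difference with MSC was called for Epha2 (adjusted p = 0.0484) and not for Pf4 (adjusted p = 0.227), which was called in the fit of the 5 MSC libraries. Pf4 had 252, 455 and 516 normalized counts in MI and 3038 and 552 in Blood, a log2 fold change of -1.73 against 1.14 with MSC, and differed by 2.87 (unadjusted p = 0.00645). Its highest value was that of Blood 21. Platelet markers together made up 1.42% of the counts of that library and at most 0.117% of those of the MSC libraries, and their part in the difference was not tested. Epha2, a receptor tyrosine kinase, had 8.11, 13.8 and 18.3 normalized counts in MI + MSC and 31.5 and 50.8 in Blood + MSC, and 42.0, 25.95 and 24.2 in MI against 7.07 and 7.15 in Blood. The difference for Epha2 was -3.31 (SE 0.64, unadjusted p = 0.000289), and the value of 7.07 in Blood 21 is a single read.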

How the results depend on the processing

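No paired analysis was possible because the tissues share no replicate numbers and the labels do not tie heart and blood libraries to the same mouse. TMM scaling over all genes gave 1053 higher and 3820 lower genes, and the spread of all 10 libraries gave 931 and 697. Leaving out single libraries gave 721 to 2122 higher and 476 to 2111 lower genes, lowest without Blood + MSC 23, and the cause was not tested. The test of the difference between tissue differences called 18 genes with DESeq2 and 0 to 1086 without single libraries, the highest without Blood 22, which leaves Blood 21 alone on its side, assumed to vary like the other groups. The difference in expressed coding genes kept its sign, at 1275.0 to 2181.5 without single libraries.

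Of 169 called genes named in the text, 0 reversed under any alternative run. Under TMM scaling over all genes 148 kept their call, under the spread of all 10 libraries 119, and without Blood + MSC 23, 107 of 167. Genes that were not called changed sign as follows. Under TMM scaling over all genes the log2 fold change was -0.59 for Il1b, -0.13 for Mcl1, -0.28 for Lyz2, -0.25 for Vwf, -0.13 for Col3a1, -0.13 for C1qa, -0.57 for Dusp1, -0.29 for Gapdh, -0.39 for Hif1a, -0.24 for Irf1, -0.40 for Rsad2, -0.57 for Socs3, -0.45 for Arg1, -0.52 for Mrc1, -0.23 for H2-Aa, -0.10 for Cebpb and -0.0173 for Rplp0. Il1b and Dusp1 were at -0.0232 and -0.00509 with TMM over the genes tested, -0.00752 and -0.0312 in edgeR and -0.00214 and -0.0261 in DESeq2. Nfkb2 was at 0.0479 with library size scaling and Mrc1 at -0.00615 in limma-voom.
Without single libraries the range was -0.68 to 0.72 for Il1b, -0.59 to 0.0203 for Cybb, -0.35 to 0.27 for Nfkb2, -0.65 to 0.73 for Dusp1, -0.37 to 0.80 for Rsad2, -0.37 to 0.47 for Socs3, -0.41 to 0.73 for Arg1, -0.21 to 0.45 for Mrc1, -0.41 to 1.17 for H2-Aa, -0.40 to 0.00697 for Malat1 and -0.66 to 0.27 for Ier2.

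Depth limits the cardiac side most, since 3 reads of MI + MSC 17 equal 6.89 normalized counts, and with 2 blood libraries each comparison rests on a single difference for the spread in blood.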
